A study of Mus musculus with 2 samples.

Results

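The 10 genes described here are known for their products in platelets and megakaryocytes: Pf4, Itga2b, Itgb3, Gp9, Gp1bb, Plek, Fermt3, Rab27b, Treml1 and Ppbp. They were listed by name and made up 10 of the 30970 gene rows of single-cell RNA sequencing data from mouse yolk sac at stage E8.75. The study set ciliated cell types against visceral endoderm and its derivatives, which its design text calls unciliated. All cells carried Ttr-Cre/+ and R26lsl-rtTA-EGFP/+, an allele in which Cre switches on rtTA and EGFP, and there was no treated group and no other genotype. Ttr-Cre is a driver used for visceral endoderm, so the blood cells described here are not its usual target. Yolk sac cells were marked with CellPlex oligonucleotides, pooled and sequenced, and the counts of the 3 tagged samples were deposited apart (tagged samples 1, 2 and 3 here).

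Megakaryocytes are large blood cells that shed platelets. Platelets bind fibrinogen through an integrin made of the Itga2b and Itgb3 products and bind von Willebrand factor through a complex that includes the Gp9 and Gp1bb products. They also release chemokines, clotting factors and small molecules from granules. The yolk sac makes the first red blood cells, megakaryocytes and macrophages of the embryo, as well as progenitors that can form several blood lineages, and Itga2b is also used as a marker of early blood progenitors.

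A cell was kept if it had 500 or more genes and no more than 10% mitochondrial counts, and cells with Ttr, Apob and Apom together at 0.3% or more of their counts were set apart as visceral endoderm. Counts are unique molecular identifiers (UMIs), each of which marks 1 captured molecule. Blood progenitors were cells with at least 5 UMIs of Myb, Runx1 and Lmo2 together, under 3% of counts from the 7 globin genes and at most 1 UMI of the endothelial gene Cdh5. Erythroid cells were cut into a lower-globin group (3% to under 7% globin) and a higher-globin group (7% or more). Endothelium had Cdh5, Ctla2a and Plvap together at 0.04% or more. Levels are given as counts per 1000000 (CPM), a gene's UMIs over all UMIs of the group in 1 tagged sample, with the standard deviation (SD) over the 3 tagged samples.

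The files held 1817 cells, of which 1740 were kept, with 22007477, 32890946 and 33114758 UMIs in tagged samples 1, 2 and 3. There were 99 progenitor cells (37, 22 and 40 by tagged sample), 265 lower-globin and 383 higher-globin erythroid cells, 118 endothelial cells and 587 visceral endoderm cells. Median depth was 48103 UMIs per progenitor cell, 47157 and 48415 in the erythroid groups, 35643 in endothelium and 56522 in visceral endoderm. The design text gives 3 embryos, but each tagged sample held cells with Xist and cells with Y-linked transcripts, so the number of embryos behind each is not settled. Among progenitors these counts were 15 and 18 in tagged sample 1, 19 and 0 in tagged sample 2, and 17 and 19 in tagged sample 3. The p-values measure the spread between these 3 tagged samples, whatever their origin. No cell barcode was shared by tagged samples.

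The progenitor gate held cells with blood progenitor markers, although not all of them. Adgrg1, an adhesion receptor of blood progenitors, read 48.2, 67.8 and 56.3 CPM in progenitors, and the receptor Kit read 15.1, 15.5 and 18.8. Kit in lower-globin erythroid cells was lower in each tagged sample, at 9.80, 7.38 and 7.79. Cd33 had 0 UMIs in progenitors, which allows up to 0.617 CPM, and Cd34 was at 0 in tagged sample 1. Of 9 blood progenitor markers tested against endothelium, as described below, 4 were lower in progenitors (Cd34, Spi1, Gata2 and Kit). The 4 higher ones were Adgrg1 and the gate genes Myb, Runx1 and Lmo2. Of all genes tested there, 27.8% were called lower and 22.8% higher.

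Positions of the genes follow GENCODE M21 on GRCm38. The chemokine genes Ppbp (chr5:90768518-90770063) and Pf4 (chr5:90772435-90773383) are neighbours on the plus strand, with 2371 bases between them. Itga2b (chr11:102453297-102470122, minus strand) and Itgb3 (chr11:104608000-104670476, plus strand) share a chromosome with Plek (chr11:16971206-17052381, minus strand). Gp9 is at chr6:87778072-87779768 (plus), Treml1 at chr17:48359916-48367176 (plus) and Fermt3 at chr19:6998958-7019469 (minus). Gp1bb (chr16:18620317-18622403, minus) overlaps Gm49601 and Sept5 on the same strand over 1938 and 1902 bases, so its count is uncertain. Plek and Fermt3 overlap Cnrip1 and Trpt1 on the other strand by 796 and 89 bases, and the sources used here do not say whether the counting used strand. Cnrip1 was highest in endothelium, at 108 ± 25.8 CPM (SD, n = 3), where Plek was not.

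The 250 bases before the start of Pf4 (chr5:90772185-90772434, plus strand) and of Fermt3 (chr19:7019470-7019719, minus strand) are shown because these genes stand for the pair of patterns described next: Pf4 was nearly absent from erythroid cells, and Fermt3 was read in most of them. The sequences are from RefSeq on GRCm38.p6, written 5′ to 3′ in the direction of the gene. Capitals mark short words that blood transcription factors are known to bind: CTTCCT is AGGAAG, an Ets-type word, read on the other strand, and TGTGGT is a Runx-type word.
Pf4: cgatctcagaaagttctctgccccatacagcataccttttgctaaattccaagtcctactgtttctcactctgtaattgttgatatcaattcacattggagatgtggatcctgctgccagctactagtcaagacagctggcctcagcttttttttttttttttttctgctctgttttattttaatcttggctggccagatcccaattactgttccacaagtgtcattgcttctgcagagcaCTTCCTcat
Fermt3: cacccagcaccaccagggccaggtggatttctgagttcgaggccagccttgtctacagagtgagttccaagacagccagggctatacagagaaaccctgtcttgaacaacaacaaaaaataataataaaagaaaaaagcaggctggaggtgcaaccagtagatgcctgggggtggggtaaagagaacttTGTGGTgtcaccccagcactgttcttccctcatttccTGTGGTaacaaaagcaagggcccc
The Ets-type word began 9 bases before the Pf4 start, and the Runx-type word occurred 2 times in the Fermt3 window. Of the 10 genes, 8 had a promoter entry. Searched on both strands, AGGAAG was in 3 of those 8 (Pf4, Gp9 and Itga2b) and in 29.5% of 32851 promoter windows of the same length, and TGTGGT was in 2 of 8 (Gp9 and Fermt3) and in 14.0%. The GATA-type words AGATAA and TGATAA, which do not overlap the others, were in 0 of 8, against 9.99% and 7.94% of all windows. A match describes letters only and is no site.

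In all cells Fermt3 gave 2390 UMIs, Itga2b 1006, Rab27b 387, Plek 323, Itgb3 282 and Pf4 197. Gp9 (44 UMIs), Treml1 (41) and Gp1bb (6) gave few, and Ppbp had 0. Progenitor cells made up 5.69% of kept cells and 5.56% of their UMIs, and held 65.9% of the Treml1 UMIs, 54.9% of those of Rab27b, 52.7% of Plek and 51.0% of Pf4. Erythroid cells held most of the UMIs of Gp9 (88.6%), Fermt3 (62.6%), Itgb3 (57.7%) and Itga2b (53.0%). Summed UMIs depend on how many cells a group has as well as on the level in each, and the levels follow.

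**Figure D1:**
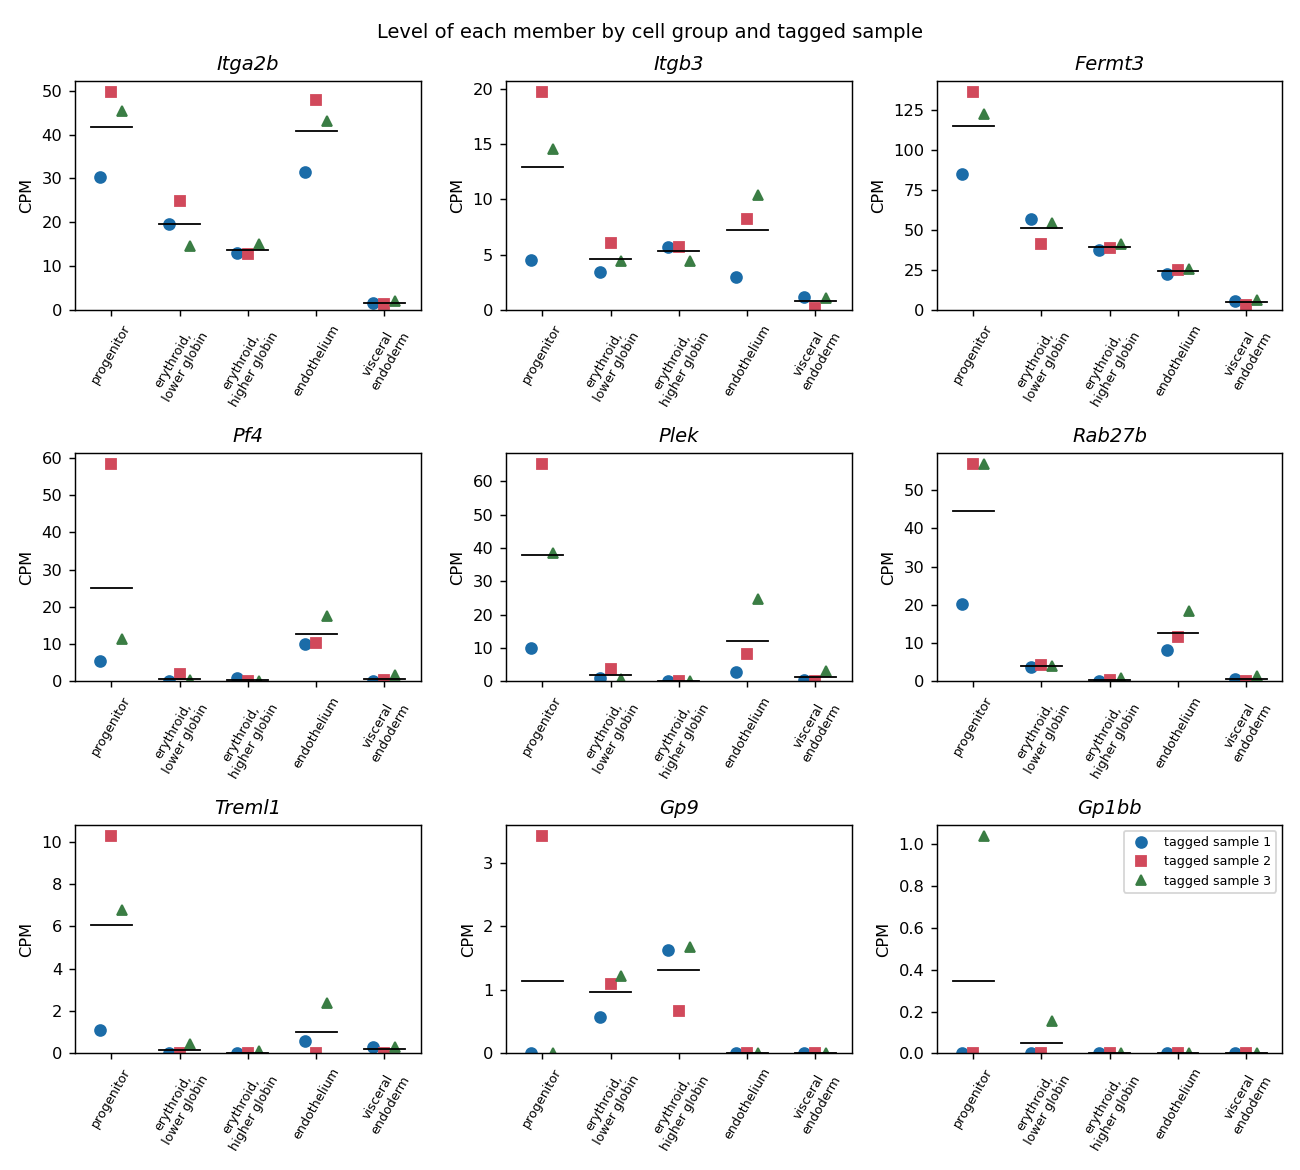
Level of each gene, in CPM on linear axes that differ between panels, by cell group (horizontal axis). Points are tagged samples 1 (circle), 2 (square) and 3 (triangle), and bars are means. Pf4, Plek, Rab27b and Treml1 were at 4.37 CPM or less in both erythroid groups, while Itga2b and Fermt3 were at 12.6 CPM or more there.

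Itga2b, the alpha subunit of the platelet fibrinogen receptor, was at 30.3, 49.8 and 45.4 CPM in progenitors and at 31.5, 47.9 and 43.1 in endothelium. Lower-globin erythroid cells were at 19.6, 24.9 and 14.5 and higher-globin cells at 13, 12.6 and 15.0. The 3 progenitor values were above all 6 erythroid values and overlapped the endothelial ones, and the 2 erythroid groups overlapped each other. Visceral endoderm was at 1.63 ± 0.393 (SD, n = 3). At least 1 UMI was seen in 78.8% of progenitor cells, 54.3% and 45.7% of lower-globin and higher-globin erythroid cells and 62.7% of endothelial cells, against 7.33% of visceral endoderm cells. With each cell thinned to 20000 UMIs these shares were 52.5%, 28.4%, 20.2%, 50.6% and 3.02%.

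Itgb3, the beta subunit of the same receptor, was at 4.49, 19.7 and 14.6 CPM in progenitors, 3.46, 6.01 and 4.43 in lower-globin erythroid cells, 5.69, 5.72 and 4.46 in higher-globin cells and 2.97, 8.22 and 10.4 in endothelium. Progenitors of tagged sample 1 sat among the erythroid values, and those of tagged samples 2 and 3 were above all of them. In visceral endoderm the level was 0.770 ± 0.556 (SD, n = 3). Of the progenitor cells 30.3% had an Itgb3 UMI, and of higher-globin erythroid cells 21.7%, against 2.39% in visceral endoderm (18.2%, 10.6% and 0.189% when thinned).

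The von Willebrand factor receptor was barely read. Gp9, which encodes 1 of its chains, gave 25 UMIs in 25 higher-globin erythroid cells and 14 UMIs in 14 lower-globin cells, each time a single UMI in a cell. Its level was 1.63, 0.665 and 1.67 CPM in higher-globin cells and 0.576, 1.09 and 1.22 in lower-globin cells, which overlap. Progenitors gave 4 Gp9 UMIs in 3 cells, all in tagged sample 2 (0, 3.43 and 0 CPM). Endothelium and visceral endoderm had 0, which allows up to 0.682 and 0.0873 CPM. Gp1bb, another chain, gave 2 UMIs in progenitors and 1 in lower-globin erythroid cells. Sept5 and Gm49601, which it overlaps, had 0 UMIs in progenitors, both erythroid groups and endothelium, and the overlap leaves the Gp1bb count uncertain.

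Treml1, a receptor that platelets keep in their granules, was at 1.12, 10.3 and 6.78 CPM in progenitors (27 UMIs in 15 cells). It gave 3 UMIs in lower-globin and 1 in higher-globin erythroid cells, 4 in endothelium and 6 in visceral endoderm. The pooled level in progenitors was 25.3 times that in lower-globin erythroid cells (95% exact interval 7.79 to 130), 108 times that in higher-globin cells (17.9 to 4435) and 6.1 times that in endothelium (2.13 to 24.0). These intervals, like all those from counts given here, cover counting error only and leave out the spread between tagged samples. Treml1 did not pass the filter on low counts.

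Fermt3 encodes kindlin-3, which binds the tail of beta integrins and is needed to switch on platelet integrins. Its level was 85.3, 136 and 123 CPM in progenitors, 56.8, 41.3 and 54.5 in lower-globin erythroid cells and 37.4, 38.3 and 41.2 in higher-globin cells. It was lowest among these groups in endothelium, at 22.6, 24.7 and 25.6. Progenitors were above both erythroid groups and endothelium below both in every tagged sample, with no overlap. Visceral endoderm was at 4.79 ± 1.79 (SD, n = 3). Fermt3 was seen in 96.0% of progenitor cells and 78.3% of higher-globin erythroid cells, against 34.7% of endothelial and 13.3% of visceral endoderm cells (82.8%, 52.0%, 31.8% and 5.28% when thinned).

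Pf4, the platelet factor 4 chemokine, was at 5.61, 58.4 and 11.5 CPM in progenitors and 10.1, 10.3 and 17.6 in endothelium. Both erythroid groups were far lower, at 0, 1.91 and 0.458 and at 0.813, 0 and 0.186, and visceral endoderm was at 0.690 ± 0.825 (SD, n = 3). The high value of tagged sample 2 rested on few cells, since 1 cell held 38 of the 100 progenitor UMIs. The share of cells with a Pf4 UMI was 24.2% in progenitors and 26.3% in endothelium, against 1.36% in visceral endoderm (13.1%, 16.5% and 0.755% when thinned). Ppbp, the neighbouring chemokine gene, had 0 UMIs in each group, which allows up to 0.617 CPM in progenitors and 0.682 in endothelium.

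Plek encodes pleckstrin, the main target of protein kinase C in platelets, which white blood cells also make. Progenitors gave 168 UMIs in 21 cells, at 10.1, 65.2 and 38.6 CPM. Higher-globin erythroid cells gave 2 UMIs (0, 0.133 and 0.0928), and lower-globin cells were at 1.15, 3.83 and 0.611. Endothelium was at 2.97, 8.22 and 24.8, where 1 cell held 16 of 48 UMIs. In each tagged sample the progenitor value was above those of erythroid cells, endothelium and visceral endoderm. Visceral endoderm was at 1.25 ± 1.67 (SD, n = 3), and 1 cell held 30 of its 37 UMIs.

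Rab27b, a small GTPase that brings dense granules to the platelet membrane for release, was at 20.2, 56.7 and 56.8 CPM in progenitors and 3.75, 4.37 and 4.12 in lower-globin erythroid cells. Higher-globin erythroid cells were at 0, 0.399 and 0.928, below every lower-globin value and close to visceral endoderm (0.675 ± 0.632, SD, n = 3). Endothelium was at 8.31, 11.6 and 18.4, between the erythroid groups and the progenitors without overlap. The share of cells with a UMI was 50.5% in progenitors, 10.9% in lower-globin and 3.13% in higher-globin erythroid cells, against 1.53% in visceral endoderm (36.4%, 6.23%, 1.33% and 0.566% when thinned).

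Differences between groups were tested on counts summed per tagged sample and group, by quasi-likelihood in edgeR, and p-values were adjusted over all genes tested by the Benjamini-Hochberg method. Differences are on the log2 scale with their standard error (SE), and a gene is called at adjusted p under 0.05. The first 3 comparisons share the progenitor sums. Of the 10 genes, 6 passed the filter on low counts in each of them (Pf4, Plek, Rab27b, Itga2b, Fermt3 and Itgb3), and Gp9, Gp1bb, Treml1 and Ppbp did not. Pf4 and Plek did not pass between the erythroid groups. Against erythroid cells they passed through the progenitor sums, where they are high, so a call of lower was hardly possible. The same holds for Rab27b against higher-globin cells, which held 13 of its UMIs. The counts of called genes against erythroid cells are thus no test against the shares over all genes.

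Progenitors had more of 5 of the 6 tested genes than lower-globin erythroid cells. Of all 8473 genes tested, 2.44% were called higher in progenitors and 3.64% lower. Pf4 was higher by 4.72 ± 0.93 on the log2 scale (edgeR adjusted p = 0.0102), Plek by 4.29 ± 0.65 (0.00236) and Rab27b by 3.27 ± 0.36 (0.000288). Fermt3 rose by 1.01 ± 0.16 (0.00326) and Itga2b by 0.97 ± 0.22 (0.0207). Itgb3 differed by 1.27 ± 0.42, with adjusted p = 0.113, and was called with tagged sample as a block in the fit (0.0110) and without tagged sample 1 (0.0239). Without tagged sample 3, only Rab27b was called: Pf4 had adjusted p = 0.0945, Plek 0.0781, Fermt3 0.0767 and Itga2b 0.308. Itga2b was also lost without tagged sample 2 (0.0561). Scaling by library size in place of the trimmed mean of M-values shifted the median of all genes by 0.15 and turned 207 higher and 308 lower genes into 553 and 117. The 5 genes stayed called under it.

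Against higher-globin erythroid cells the same 5 genes were called, where 12.7% of 7549 genes tested were called higher in progenitors and 13.2% lower. Plek differed by 7.79 ± 0.82 (edgeR adjusted p = 9.28e-06), Pf4 by 6.61 ± 1.04 (0.000295) and Rab27b by 5.69 ± 0.48 (1.41e-06). Since higher-globin cells held only 2 Plek and 3 Pf4 UMIs, the ratios of pooled levels are loose, at 337 for Plek (95% exact interval 91.9 to 2806) and 134 for Pf4 (44.5 to 659). Itga2b rose by 1.27 ± 0.18 (0.000145) and Fermt3 by 1.21 ± 0.14 (1.97e-05). Itgb3 differed by 0.96 ± 0.38 with adjusted p = 0.0777, and was called with tagged sample as a block (0.0140), with library size scaling (0.0145) and without tagged sample 1 (0.00411). Without tagged sample 3, Pf4 did not pass the filter and the other 4 genes were called. Library size scaling shifted the median of all genes by 0.32 and turned 956 higher and 996 lower genes into 3070 and 311.

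Against endothelium, 3 of the 6 genes were called higher, where 22.8% of 8267 genes tested were called higher and 27.8% lower. Fermt3 was higher by 2.26 ± 0.20 (edgeR adjusted p = 7.79e-07) and Rab27b by 1.85 ± 0.39 (0.00149). Plek was higher by 1.71 ± 0.63 (0.0359), but was not called by DESeq2 (0.198) or without tagged sample 2 (0.297). Itga2b differed by 0.05 ± 0.22 (0.856) and Itgb3 by 0.86 ± 0.52 (0.184). Pf4 differed by 0.88 ± 0.65 (0.282), and its sign turned without tagged sample 2 (−0.60).

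Between the erythroid groups, Rab27b was the one gene called of the 4 that passed the filter. It was lower in higher-globin cells by 2.44 on the log2 scale (−2.44 ± 0.42, edgeR adjusted p = 0.00159), where 6.04% of 9178 genes tested were called lower and 5.43% higher. Itga2b (−0.29, adjusted p = 0.395), Fermt3 (−0.20, 0.322) and Itgb3 (0.31, 0.547) were not called. Library size scaling shifted the median of all genes by −0.18, turned 498 higher and 554 lower genes into 125 and 1591, and added Fermt3 as lower (−0.37, 0.0327).

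**Figure D2:**
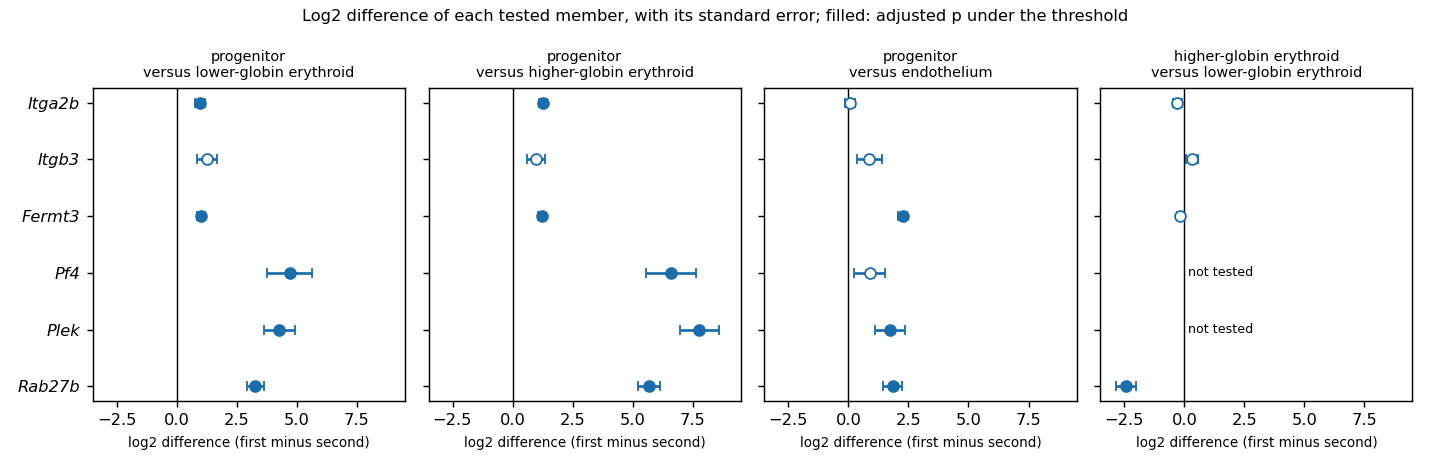
Log2 difference of each gene that passed the filter in at least 1 comparison (horizontal axis, first group minus second), with its standard error, in 4 comparisons. Filled points were called. Differences of Pf4, Plek and Rab27b from both erythroid groups lie at 3.27 or more, and those of Itga2b, Itgb3 and Fermt3 at 1.27 or less.

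Markers of other cell types also differed between these groups, and their part in the results was not tested. The 15 macrophage and myeloid markers summed to 8.41 to 43.8 CPM in progenitors, 3.46 to 14.8 in lower-globin and 1.63 to 2.93 in higher-globin erythroid cells, and 108 to 223 in endothelium, where Ptprc, C1qa, C1qb, C1qc and Adgre1 were at 0. None of the 15 passed the filter in either erythroid comparison, and 3 of 5 were lower in progenitors than in endothelium (Mrc1, Fcgr3 and Coro1a). Of all genes tested against endothelium, 27.8% were called lower in progenitors. The 13 endothelium markers summed to 130 to 224 in progenitors, 90.5 to 260 in lower-globin and 62.6 to 93.1 in higher-globin erythroid cells, and 3260 to 3634 in endothelium. Of the 4 tested against higher-globin cells, 3 were called higher in progenitors (Ctla2a, a gate gene of endothelium, Tek and Pecam1), where 12.7% of all genes tested were. The 10 extraembryonic mesoderm markers summed to 197 to 315 in progenitors, 170 to 241 and 47.2 to 62.4 in the erythroid groups and 297 to 438 in endothelium. They were called in 6 of 6 tested against higher-globin cells and in 0 of 10 against lower-globin cells, where edgeR at an unadjusted p under the threshold and DESeq2 gave 0 as well. A marker low in higher-globin cells passes the filter only through progenitors, so a call of higher was favoured in advance there.

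Each cell was then scored by how many of the 10 genes it carried, with 1 UMI or more counting as carried. Cells with 3 or more numbered 214, of which 54 were progenitors, 54 lower-globin and 52 higher-globin erythroid cells, 36 endothelium, 12 visceral endoderm and 6 outside all gates. Among progenitors these were 13 of 37, 14 of 22 and 27 of 40 cells in tagged samples 1, 2 and 3, or 35.1%, 63.6% and 67.5%. Tagged sample 1 was the low one. The pooled share was 54.5% (95% Clopper-Pearson interval 44.2 to 64.6). This interval covers counting error only, and the shares of tagged samples 1 and 3 lie outside it.

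For endothelium the share was 30.6 ± 2.58%, against 20.9 ± 2.79% in lower-globin and 17.4 ± 8.70% in higher-globin erythroid cells, and 2.07 ± 0.260% in visceral endoderm (SD, n = 3). Progenitors were at 55.4 ± 17.7%. All 3 progenitor values were above the endothelial values of 12 of 36, 11 of 39 and 13 of 43 cells, and the difference of 24.8 percentage points had p = 0.1 in a two-sided exact permutation test, the smallest that 3 against 3 allows. The test did not pair the groups by tagged sample. In tagged sample 1 the shares were close, at 35.1% in progenitors and 33.3% in endothelium. The groups differ in depth, with median UMIs of 48103 in progenitors, 35643 in endothelium and 56522 in visceral endoderm. Thinned to 20000 UMIs per cell, the shares were 38.5 ± 21.9% in progenitors (36 of 99 cells), 16.5 ± 9.74% in endothelium (14 of 85), 5.16 ± 0.634% and 0.703 ± 0.708% in the erythroid groups, and 0.203% in visceral endoderm. In thinned cells the exact permutation p was 0.2. The same test gave 0.2 without the progenitor cell with most of these UMIs in each tagged sample, and 0.4 for 4 or more genes per cell.

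**Figure D3:**
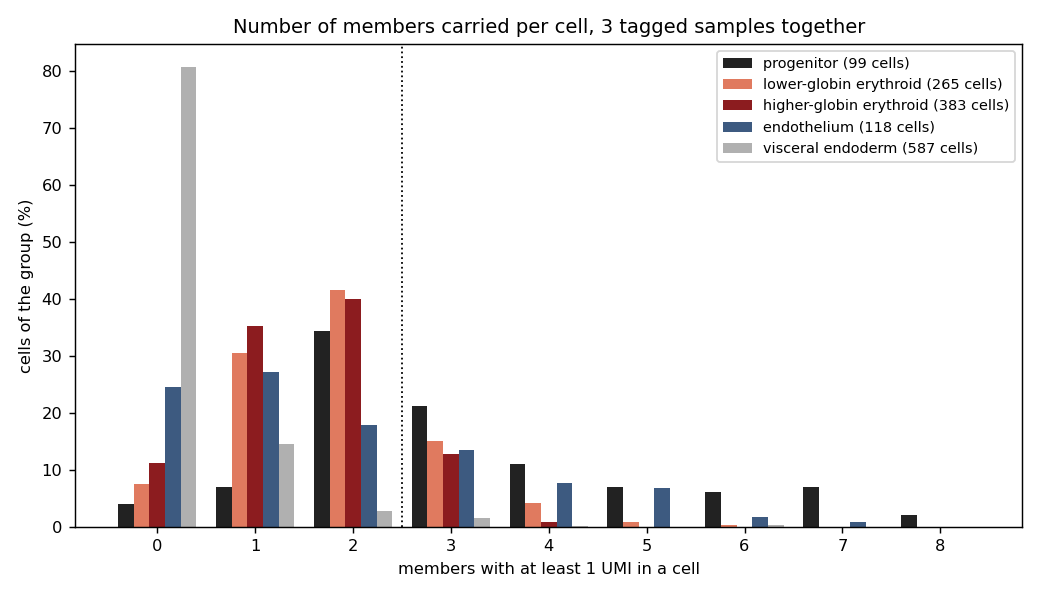
Share of the cells of each group (vertical axis, percent, 3 tagged samples together) that carried 0 to 8 of the genes (horizontal axis). Cells to the right of the dotted line carried 3 or more, and cells with 7 or 8 were progenitors, apart from 1 endothelial cell with 7.

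Carrying many of the genes was mostly seen in progenitors and endothelium. At least 5 were found in 40 cells, of which 22 were progenitors (1, 10 and 11 by tagged sample), 11 endothelium, 3 lower-globin erythroid, 2 visceral endoderm and 2 outside the gates. Among higher-globin erythroid cells 0 of 383 carried 5, which with 3 cells as the limit allows a share of up to 0.783%, although 52 carried 3 or more. The most was 8, in 2 progenitor cells of tagged sample 2. Progenitor cells carried 2 (34 cells) or 3 (21 cells) most often, so many of them lay next to the limit.

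The genes behind a count of 3 or more differed by group. The 52 higher-globin erythroid cells carried Fermt3 (52), Itga2b (45) and Itgb3 (43), with Gp9 in 12, Rab27b in 4, Plek in 2 and Pf4 in 1. The 54 lower-globin erythroid cells carried Fermt3 (54), Itga2b (49) and Itgb3 (31), with Rab27b in 23, Pf4 in 7, Plek in 7 and Gp9 in 6. The 54 progenitor cells carried Fermt3 (54), Itga2b (49) and Rab27b (45), then Itgb3 (30), Pf4 (24), Plek (21) and Treml1 (15). The 36 endothelial cells carried Itga2b (35), Fermt3 (29), Pf4 (23) and Rab27b (23).

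Of the 24 progenitor cells with Pf4, 16 had Plek (66.7%, against 6.67% of the other progenitors), 21 had Rab27b (87.5% against 38.7%), 16 had Itgb3 (66.7% against 18.7%) and 10 had Treml1 (41.7% against 6.67%). In endothelium, of 31 cells with Pf4, 10 had Plek (32.3% against 9.20%) and 12 had Rab27b (38.7% against 21.8%). These shares describe cells that share a library and differ in depth, and carry no test.

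Progenitor cells with 3 or more of the genes were compared with the other 45 progenitor cells (24, 8 and 13 by tagged sample), for genes outside the 10. The split used the 10 genes, so they are not a result here. The 54 cells had a median of 50129.5 UMIs against 45149, 1.05% globin against 1.98% and 22.5 UMIs of the gate genes against 16. Of 5659 genes tested in edgeR, 1.02% were called higher and 1.33% lower in the 54 cells, which left 128 called genes outside the 10. This count moved with the limit, to 246 at 4 or more genes and 0 at 2 or more (310 of all genes tested had an unadjusted p under the threshold there). At 2 or more, 31 of 37, 20 of 22 and 37 of 40 progenitor cells carried that many, which left few to compare them with. Leaving out tagged sample 3 gave 62 and leaving out tagged sample 1 gave 181, and leaving out the 2 cells called as doublets by Scrublet gave 67. The 58 higher and 75 lower genes, the 10 included, became 47 and 25 without those 2 cells, both among the 45, and 44 and 29 with visceral endoderm set apart at 0.1% in place of 0.3%.

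Mef2c, a transcription factor with a known role in megakaryocytes and muscle, was at 60.8, 139 and 127 CPM in the 54 cells and 9.16, 2.21 and 18.9 in the others. It was higher by 3.39 ± 0.39 (edgeR adjusted p = 0.000104), with no overlap. With 304 UMIs against 23, it passed the filter on low counts through the 54 cells, so a call of lower was hardly possible. Nfe2, a transcription factor needed for platelet shedding, was at 44.9, 68.7 and 49.2 against 25.6, 19.9 and 26.7 (1.14 ± 0.24, 0.0181), but was not called without tagged sample 1, 2 or 3 (0.0510, 0.158 and 0.130). Gata1, which both red cells and megakaryocytes need, was at 110 ± 2.59 against 109 ± 9.25 (SD, n = 3; edgeR adjusted p = 0.961).

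F2r, a thrombin receptor, was at 74.0 ± 26.5 against 19.0 ± 7.39 CPM (SD, n = 3; 1.86 ± 0.31 on the log2 scale, edgeR adjusted p = 0.00292). Arpc1b, part of the actin-branching Arp2/3 complex of blood cells, was at 106 ± 20.3 against 26.1 ± 3.96. The kinase gene Lyn (2.16), Rasgrp2 (1.20), which activates Rap1 in platelets, Rap1b (1.08) and the talin gene Tln1 (0.89) were also higher, giving 4 of the 12 tested integrin activation and signalling genes, with Fermt2 lower (−1.97). Of these 5 calls, 4, 2 and 2 held without tagged samples 1, 2 and 3, and F2r was lost without tagged sample 3 (0.0772). The immediate-early genes Fos (2.44) and Jun (1.37) were higher as well, with Tgfb1 (1.76), Ubash3b (1.60), Ddah2 (1.55), Unc119 (1.51), Nrgn (1.48), Fam111a (1.46) and Zeb2 (1.38).

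Genes lower in the 54 cells were led by Akap12, a kinase anchor, at 1.45, 1.40 and 0.780 CPM against 73.3, 75.2 and 40.9. It gave 3 UMIs against 140, a pooled ratio of 57.5 in favour of the other cells (95% exact interval 19.3 to 282). Hand1, a transcription factor of extraembryonic mesoderm, was at 1.99 ± 0.980 against 64.8 ± 22.8 (SD, n = 3). The imprinted genes Dlk1 (−3.69), Meg3 (−3.48) and Mest (−3.22) were lower, as were Igfbp2 (−5.23), Basp1 (−4.92), Pmp22 (−3.91), Krt8 (−3.02) and the contractile genes Acta2 (−4.54), Tagln (−3.45) and Cald1 (−3.13). Of the 24 genes named for the size of their difference, 24, 20 and 17 were called without tagged samples 1, 2 and 3. They were chosen as called in the same data, so these counts are no independent support. Igfbp2 gave 5 UMIs against 165, Basp1 9 against 245, Acta2 11 against 207, Dlk1 16 against 168 and Tagln 14 against 122. Like Akap12, Hand1 and Pmp22, these passed the filter on low counts through the other cells. A call of lower was thus close to fixed in advance for them.

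**Figure D4:**
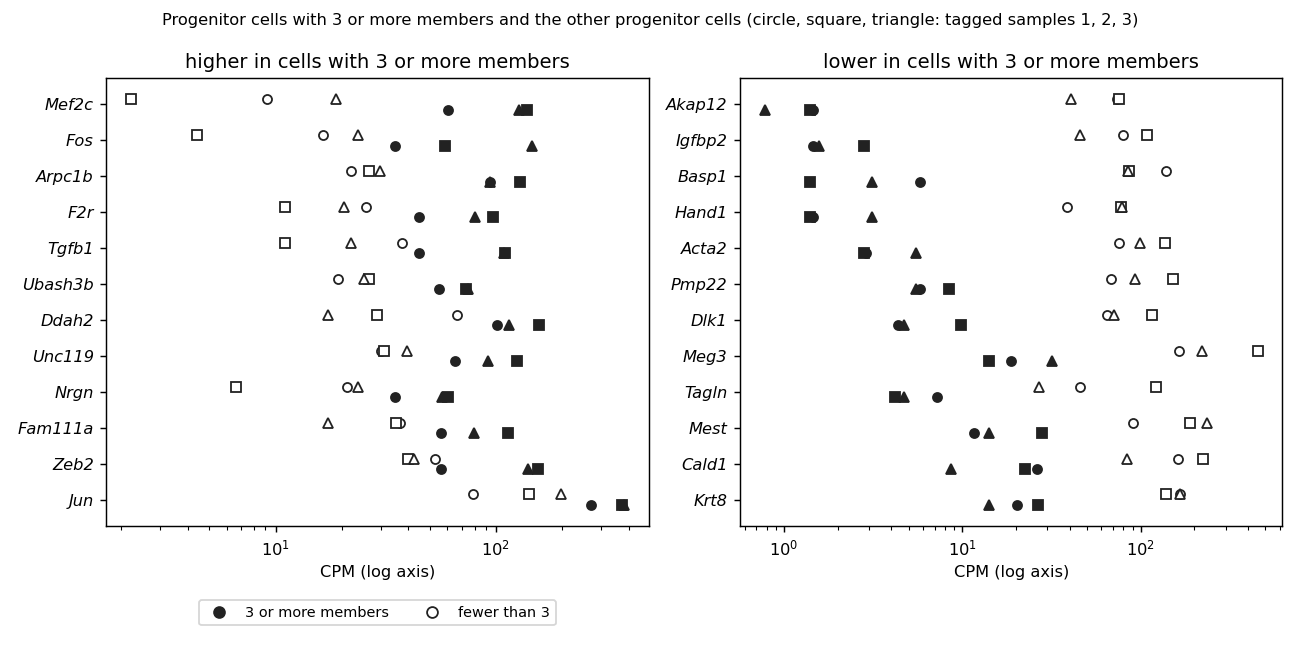
Levels, in CPM on log axes, of the 12 genes outside the set with the largest called differences in each direction, in progenitor cells with 3 or more of the genes (filled) and the other progenitor cells (open). Circle, square and triangle are tagged samples 1, 2 and 3. A like direction in every tagged sample was part of the choice of these genes.

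Markers of other cell types moved with this split, and their part in it was not tested. The 10 extraembryonic mesoderm markers summed to 46.3 to 93.6 CPM in the 54 cells, with Tbx20 at 0, and to 293 to 732 in the others. Of the 5 tested, 5 were lower in the 54 cells (Hand1, Pmp22, Bmp4, Col1a2 and Ahnak), and 4, 4 and 3 were without tagged samples 1, 2 and 3. Of all genes tested, 1.33% were called lower and 1.02% higher. Hand1 (6 UMIs against 127), Pmp22 (17 against 202), Bmp4 (8 against 45) and Col1a2 (14 against 54) passed the filter through the other cells. For these a call of lower was thus close to fixed in advance. The 15 macrophage and myeloid markers summed to 20.3 to 68.7 in the 54 cells, with 6 at 0 (Csf1r, Ptprc, Cx3cr1, C1qa, C1qb and Adgre1), and to 0.916 to 4.42 in the others, with 13 at 0. The endothelium markers summed to 156 to 260 against 114 to 168, and visceral endoderm markers to 499 to 562 against 477 to 1866. Erythroid markers summed to 7832 to 13954 against 16160 to 22645.

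Other platelet and megakaryocyte genes, in a list of 30 besides the 10, were mostly too low to test. Progenitors gave 0 UMIs of the collagen receptor Gp6 and of Selp (up to 0.617 CPM), 3 of Gp1ba, 10 of the tubulin gene Tubb1, 13 of Vwf and 18 of Gp5. Of the 6 tested against lower-globin erythroid cells, 3 were higher in progenitors and 0 lower, where 2.44% and 3.64% of all genes tested were. The 3 were the adaptor Lat (3.44, edgeR adjusted p = 0.00814), the ATP-gated channel P2rx1 (2.86, 0.00681) and F2r (1.19, 0.0127). None of the 3 was called without tagged sample 2 or without tagged sample 3. A gene low in lower-globin cells passes the filter only through progenitors, so a call of higher was favoured in advance. The count is thus no test against the shares over all genes. Of the 8 tested against endothelium, edgeR and DESeq2 called 0 higher (0 at an unadjusted p under the threshold) and 4 lower, namely Clec1b (−6.1), Gng11 (−5.44), F5 (−4.00) and F2rl3 (−2.31). Of all genes tested there, edgeR called 22.8% higher and 27.8% lower. Clec1b, the podoplanin receptor of platelets, gave 3 UMIs in progenitors and 214 in endothelium. It passed the filter through endothelium, so a call of lower was close to fixed in advance.

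Some genes of integrin activation and signalling were called higher in progenitors than in erythroid cells, and most of those tested were called lower than in endothelium. Of 17 tested against lower-globin erythroid cells, 9 were higher and 0 lower, where 2.44% and 3.64% of all genes tested were. The median was 0.72 against 0.01 over all genes, and 3 and 1 of the 9 were called without tagged samples 2 and 3. Rasgrp2 was at 115, 199 and 145 CPM in progenitors against 46.1, 43.2 and 41.7 (1.65 ± 0.16, edgeR adjusted p = 0.000129). Plcg2 (2.34), Syk (2.22) and Src (2.02), all of which signal from platelet receptors, were also higher. Against higher-globin cells 10 of 13 were higher and 0 lower, where 12.7% and 13.2% of all genes tested were. A gene low in erythroid cells passes the filter only through progenitors, so a call of higher was favoured in advance. The counts against both erythroid groups are thus no test against the shares over all genes. Against endothelium 1 of 17 was higher (Rap1b, 0.56, lost without tagged sample 2 or 3 at 0.186 and 0.183) and 14 were lower, among them Itga6 (−4.89) and Fermt2 (−3.54), the kindlin of tissues outside the blood, where Fermt3 went the other way. Of all genes tested there, 22.8% were called higher and 27.8% lower.

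Of 10 other granule and secretion genes tested against lower-globin erythroid cells, edgeR and DESeq2 called 0 in either direction, 2 had an unadjusted p under the threshold, and the median was 0.12. Against higher-globin cells 2 of 8 were higher (Lyst and Snap23) and 1 lower (Vamp8), where 12.7% and 13.2% of all genes tested were. DESeq2 called 0 higher and 1 lower there, and leaving out any 1 tagged sample left 1 of the 3 calls. Against endothelium 3 of 9 were higher (Hps4, Stxbp2 and Vamp8) and 1 lower (Snap23), where 22.8% and 27.8% of all genes were. DESeq2 called 1 higher and 1 lower, and 4, 2 and 3 of the 4 calls were made without tagged samples 1, 2 and 3.

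Transcription factors of megakaryocytes and blood changed in few cases between progenitors and lower-globin erythroid cells, with 2 of 14 higher and 1 lower. Of all genes tested there, 2.44% were called higher and 3.64% lower. Fli1, which drives megakaryocyte genes, was at 9.54, 34.3 and 36.0 CPM in progenitors against 0.576, 10.4 and 2.44 (2.49 ± 0.62, edgeR adjusted p = 0.0343, and 0.444 without tagged sample 3). It passed the filter through progenitors, so a call of lower was hardly possible. Klf1, which drives erythroid genes, was lower (−0.64 ± 0.12, 0.00721, and 0.0507 and 0.124 without tagged samples 2 and 3), and Gata1 (0.05, 0.871) and Nfe2 (0.24, 0.459) were not called. Against endothelium 10 of 19 were higher, among them Nfe2 (3.68), Gata1 (3.43) and Gfi1b (2.73), and 7 were lower, among them Fli1 (−2.62), which endothelium also makes, and Spi1 (−2.79). Of all genes tested against endothelium, 22.8% were called higher and 27.8% lower.

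Across 18 sums (6 groups by 3 tagged samples), the summed level of the 10 genes was most like those of Inka1 (Pearson's r = 0.948), Rap1a (0.946), Smim3 (0.946), Emp3 (0.946), Frat2 (0.943), Tnik (0.942), Ugcg (0.927), the ADP receptor P2ry1 (0.927), Nrip1 (0.926) and Serinc3 (0.922). Within the 10, Itgb3 (0.917), Itga2b (0.897) and Fermt3 (0.835) were most like the sum of the others, and Plek (0.609), Gp9 (0.394) and Gp1bb (0.174) least. The sums of a tagged sample share a library, so these values only describe the pattern.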

How the data were processed

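Single-cell RNA sequencing counts of mouse yolk sac cells were used, from 3 tagged samples of 1 pool. The deposited matrices hold raw UMI counts, not normalized, and Cell Ranger 6.1.2 wrote them per the file headers, with builds GRCm38 and mm10 per the submitters' processing notes. The 6 tag rows were left out, and 30900 of 30970 gene identifiers matched GENCODE M21. The sources used here do not say how cells were assigned to tags.

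Cells were gated as described above. A cell that met several gates went to erythroid, then progenitor, then endothelium (4 cells). No doublet caller was applied in the main run. Scrublet was an alternative and called 2 of the progenitor cells. Sums over the cells of a group in each tagged sample were made with Python 3.11.15, scanpy 1.11.5, scipy 1.17.1 and numpy 2.4.6. The sums of 2 groups were fitted in edgeR 4.0.16 on R 4.3.3 after filterByExpr and scaling by the trimmed mean of M-values, with two-sided tests from glmQLFit and glmQLFTest. The fits were tested on simulated data. Precision is limited by the number of tagged samples, 3 per group, and by low counts for Gp9 and Treml1. Depth was 22007477 to 33114758 UMIs per tagged sample.

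Both groups of a comparison are read in each tagged sample, which pairs their sums. Deviations from the group means correlated across genes by 0.18, 0.14 and 0.14 for progenitor and lower-globin sums, 0.10, 0.07 and 0.08 against higher-globin sums, 0.12, 0.04 and 0.03 against endothelium and 0.15, 0.19 and 0.12 between the erythroid groups. Genes are not independent replicates.

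All 10 genes are named. From the marker and gene lists only called genes or examples are named. In the split of progenitor cells, the 12 genes in each direction with the largest called difference were named, at 50 or more CPM in the higher group and with a like direction in each tagged sample, without gate, mitochondrial, ribosomal and unnamed genes. The 10 genes, the lists and the rules were chosen with earlier results of these data known.

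Alternatives covered tagged sample as a block, DESeq2 1.42.0, library size scaling, no low-count filter, thinned cells, other gates, Scrublet calls left out, other carrier limits and each tagged sample left out. A carrier split on thinned counts, and leaving out the progenitor cell with most UMIs of the 10 genes in each tagged sample, were added after seeing the data.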

Additional observations from a re-analysis of the deposited data

How the results depend on the processing

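Of the 10 genes, 5 were called for progenitors against lower-globin erythroid cells, 1 to 7 with 1 tagged sample left out and 3 with thinned cells, where 3 were tested. Against higher-globin cells 5 were called, 4 to 7 with 1 tagged sample left out, 3 with thinned cells (3 tested) and 3 without the progenitor cell with most of these UMIs in each tagged sample (4 tested). Against endothelium 3 were called, 2 to 3 with 1 tagged sample left out and 5 with no low-count filter, where Pf4 and Treml1 were added. Between the erythroid groups 1 was called, 2 with library size scaling, 2 with no filter and 0 with thinned cells, where Rab27b was not among the 3 tested (edgeR called 395 of all genes there). Pf4 against endothelium ranged from −0.60 (without tagged sample 2) to 1.56 (without tagged sample 3) and turned to −0.020 without the leading progenitor cells, and Itga2b turned to −0.027 with a gate of 3 UMIs. The cause was not tested.

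In the split of progenitor cells 128 genes outside the 10 were called, 62 to 181 with 1 tagged sample left out, 474 with no filter, 67 without Scrublet calls, 79 thinned, 85 and 36 at gates of 3 and 8 UMIs, 76 at a globin limit of 2%, 68 at an endoderm limit of 0.1%, 0 at 2 or more genes per cell and 246 at 4 or more. At 2 or more, 88 of the 99 progenitor cells carried that many, which left few to compare them with. Tagged sample as a replicate block gave 180. The share of progenitor cells with 3 or more genes was 55.4%, 49.4% to 65.6% with 1 tagged sample left out and 29.8% when 2 UMIs were asked of each gene. Besides Itgb3, the block changed no call of the 6 tested genes. Gp9, Gp1bb, Treml1 and Ppbp had few or 0 counts.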
